A study of Homo sapiens with 2 samples.

Results

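The class 4 semaphorins described here are SEMA4A, SEMA4B, SEMA4C, SEMA4D, SEMA4F and SEMA4G, 6 of the 19881 protein-coding genes with a GRCh38 position in GENCODE. They were chosen by gene name, and no peak value entered the rule. OTX2 peaks were taken when they overlapped the gene record extended by 50 kb on each side, which gave 64 of the 137412 deposited peaks. A peak was placed at a transcript start when it reached from up to 5 kb before to 2 kb after any annotated start of the gene, otherwise in the gene body, and otherwise in the flank. By this order 10 of the 64 peaks lay at a transcript start, 6 in a gene body and 48 in a flank.

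D283 is an established medulloblastoma (MB) cell line, grown here without treatment as tumorspheres, which are free-floating cell clusters, and labelled OTX2+ control. Chromatin of these tumorspheres was pulled down with an antibody to OTX2 in 1 ChIP library, and 1 Input library without antibody served as the background. After duplicate removal 61259377 ChIP fragments and 22521186 Input fragments remained, a ratio of 2.72. No condition had a replicate, no group lacked OTX2 and no RNA was measured in these libraries, so the identity of the cells and the expression of the semaphorins were not checked here.

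Class 4 semaphorins are transmembrane ligands that guide growing axons and also act at synapses and in the immune system. They are read mainly by plexins of the B type and by plexin-D1. SEMA4D binding to plexin-B1 engages the guanine nucleotide exchange factors ARHGEF11 and ARHGEF12, through which it acts on the actin cytoskeleton. OTX2 is a homeodomain transcription factor of the developing brain, and its core recognition sequences are TAATCC and TAATCT.

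Promoter sequence of the peaks' genome build was given by RefSeq (GRCh38.p14), as windows from 250 bases before to 50 after each RefSeq start. All 6 members matched, with 12 windows. The SEMA4F window is shown because it is the only one of the 12 that an OTX2 peak overlapped, where 29.9% of all RefSeq windows were overlapped, and the 192 bases inside the peak are in capitals. The SEMA4B window around the canonical start is shown because it borders the tallest transcript start peak of the family, which ended 13 bp before it. The window of LOC102724497, a gene in the downstream flank of SEMA4F, is shown because it alone, among 18 windows of other genes under member peaks, held a recognition sequence, which is in capitals.
SEMA4F, chr2:74653997-74654296, plus strand: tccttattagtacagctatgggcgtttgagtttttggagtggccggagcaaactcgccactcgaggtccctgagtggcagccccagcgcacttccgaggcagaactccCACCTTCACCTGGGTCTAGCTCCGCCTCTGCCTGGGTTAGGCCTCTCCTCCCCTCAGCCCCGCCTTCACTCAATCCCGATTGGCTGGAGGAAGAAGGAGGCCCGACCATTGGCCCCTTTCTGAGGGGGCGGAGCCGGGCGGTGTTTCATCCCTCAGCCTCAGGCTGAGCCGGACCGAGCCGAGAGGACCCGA
SEMA4B, chr15:90201080-90201379, plus strand: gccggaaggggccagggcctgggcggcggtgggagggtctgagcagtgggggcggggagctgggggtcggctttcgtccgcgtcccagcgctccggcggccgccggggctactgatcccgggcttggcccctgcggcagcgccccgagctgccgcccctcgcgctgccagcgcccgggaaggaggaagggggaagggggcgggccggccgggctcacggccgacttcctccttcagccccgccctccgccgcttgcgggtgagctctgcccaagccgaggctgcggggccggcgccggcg
LOC102724497, chr2:74715049-74715348, plus strand: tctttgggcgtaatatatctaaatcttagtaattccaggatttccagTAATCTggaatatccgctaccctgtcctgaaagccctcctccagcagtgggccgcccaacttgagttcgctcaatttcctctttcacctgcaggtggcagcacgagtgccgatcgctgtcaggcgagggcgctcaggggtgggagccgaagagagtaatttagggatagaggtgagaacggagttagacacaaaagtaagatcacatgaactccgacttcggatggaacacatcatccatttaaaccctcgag
Both strands of these windows were searched for TAATCC and TAATCT, which were found in 0 of the 12 member windows, against 12.8% of all 34943 RefSeq windows and 13.4% of the 10442 windows that overlapped a peak. Among the 5925 windows that held a peak summit the share was 17.5%. G and C made up 52.3% to 79.3% of the 12 member windows, a share that was not taken over all RefSeq windows. In the LOC102724497 window TAATCT lay at 74715096 to 74715101, 203 bp before the RefSeq start and 38 bp from the summit of a peak of 109 fragments. These matches describe letters in short windows, and the absence of a match does not bear on binding elsewhere.

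Each peak is described by the ChIP fragments piled up at its summit, by its enrichment over the local Input (the fold enrichment) and by its distance from the gene start, which is the 5′ end of the GENCODE record. Intervals in brackets are exact Poisson 95% intervals of the fragments and cover counting error only. The 64 peaks held 18 to 199 fragments with a median of 48.0, against a median of 53.0 over all deposited peaks. Their median fold enrichment was 6.20, against 6.10 over all peaks. Tall peaks were no more frequent around the members than elsewhere: 11 of the 64 peaks (17.2%) lay above 95.0 fragments, the upper quartile, as did 24.8% of all peaks. By class the median was 47.5 fragments at transcript starts, 41.0 in gene bodies and 50.0 in flanks. Of the 64 summits, 12 lay inside a member's record, all 12 in introns and 0 in exons.

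**Figure D1:**
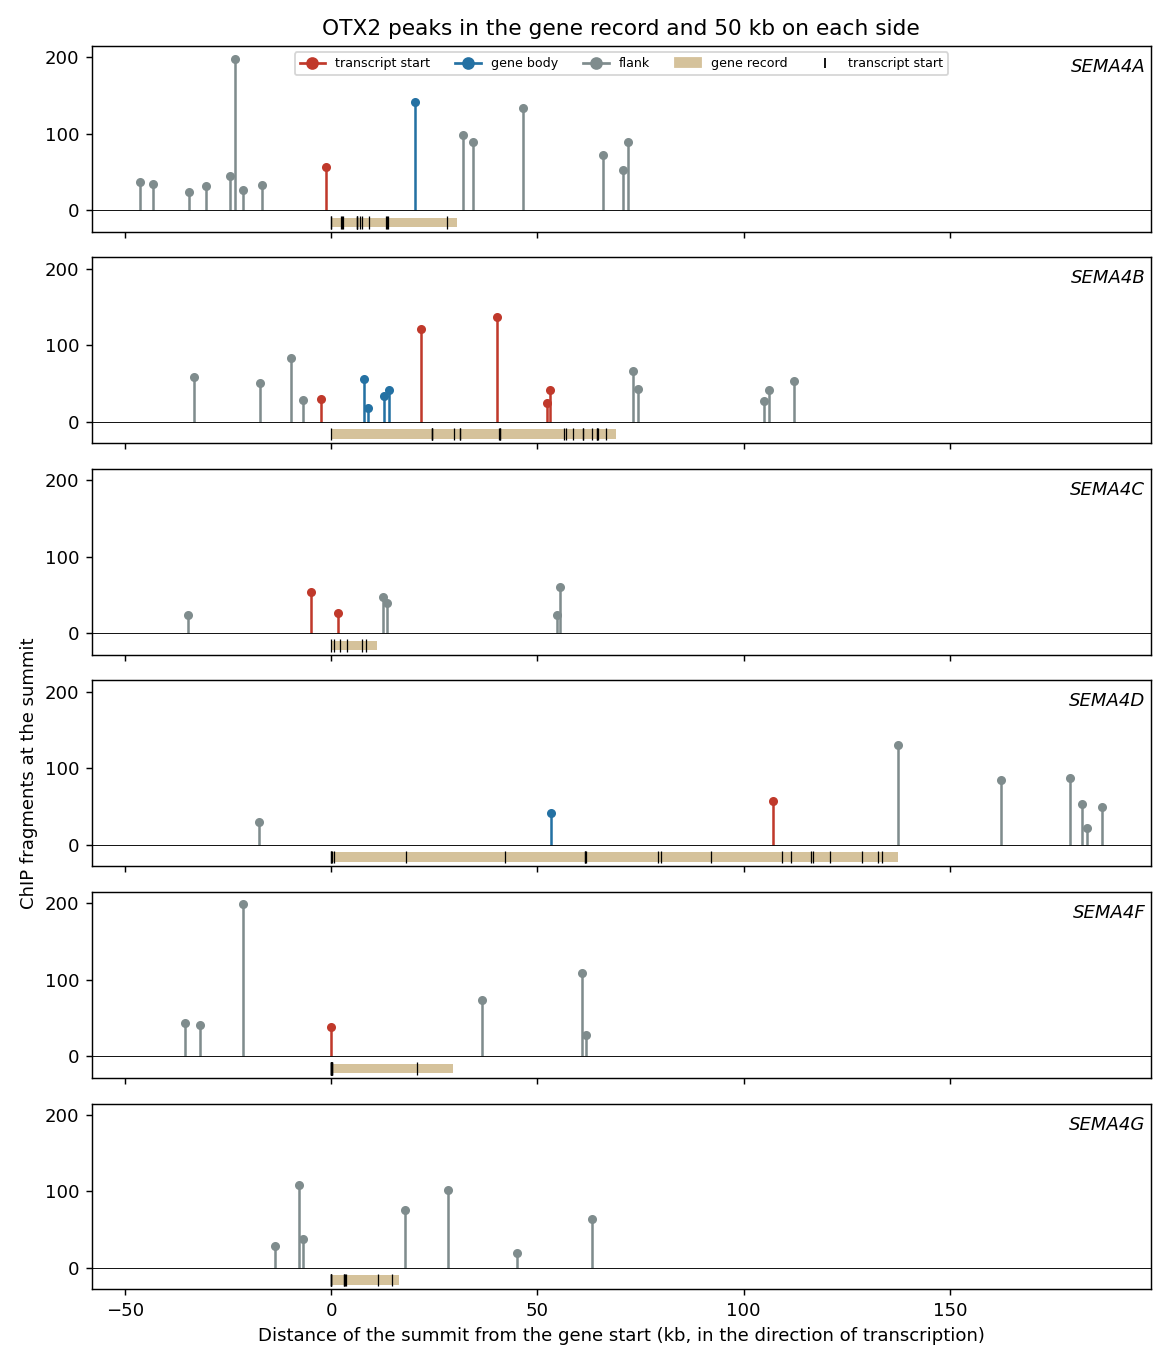
Stems give ChIP fragments at the summit of each OTX2 peak (y axis, fragments) by distance from the gene start (x axis, kb in the direction of transcription) for the 6 genes, in red at transcript starts, blue in gene bodies and grey in flanks, with the gene record as a bar and its transcript starts as ticks. The tallest stems, 199 fragments at SEMA4F and 198 at SEMA4A, stand upstream in the flanks, and SEMA4B alone has stems over 100 fragments at transcript starts.

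At the gene start, SEMA4A, SEMA4B, SEMA4C and SEMA4F had an OTX2 peak and SEMA4D and SEMA4G had none. These 4 of 6 stand beside 57.2% of all protein-coding genes. Closer in, at most 1 kb from the gene start, a peak was left at SEMA4F and, by its edge, at SEMA4A, so 2 of 6 beside 46.9%. At any annotated transcript start 5 of 6 had a peak, SEMA4D being added, beside 66.6%, and within 1 kb of any start 4 of 6, beside 56.8%. Counted by transcript, 29 of the 85 member transcripts (34.1%) had a peak at the start, where 56.1% of all transcripts of protein-coding genes did. Of the 42 protein-coding transcripts among them, 16 (38.1%) had one, beside 60.3% of all protein-coding transcripts. Transcripts of a gene share starts and peaks, so these counts are not independent of each other. With a fold enrichment of at least 5 required, SEMA4C alone kept a peak at the gene start, 1 of 6 beside 38.5%. This holds for the GENCODE start, since the peak at the later RefSeq start of SEMA4B had a fold enrichment of 13.0. Inside the gene record 5 of 6 had a peak, beside 69.5%, the exception being SEMA4G. With 6 genes, none of these gene counts was far from its background share, and they are not read as a property of the family. Both counts by transcript were lower than their background, but the members differed widely. SEMA4D had a peak at 2 of 24 transcripts and SEMA4G at 0 of 10. SEMA4A had one at 5 of 15, SEMA4B at 9 of 20, SEMA4C at 4 of 6 and SEMA4F at 9 of 10. Of protein-coding transcripts SEMA4D had 0 of 13 and SEMA4G 0 of 4, while the others, in that order, had 4 of 8, 4 of 9, 3 of 3 and 5 of 5. The counts by transcript are thus not read as a property of the family either.

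SEMA4B, which takes part in synapse formation, held the most peaks and the tallest ones at transcript starts. Its record (ENSG00000185033) runs from 90160604 to 90229679 on chromosome 15, plus strand, with 20 transcript starts over 69.1 kb. Of 18 peaks, 5 lay at transcript starts, 4 in the gene body and 9 in the flanks, and 8 overlapped the record. Heights ran from 18 to 137 fragments with a median of 42.0. The tallest peak, at 90200306 to 90201067, held 137 fragments (115 to 162) with a fold enrichment of 20.3. Its summit lay 40.1 kb inside the record but 629 bp upstream of the canonical transcript, SEMA4B-202, whose promoter is printed above. The second, at 90182119 to 90182643, held 122 fragments (101 to 146) with a fold enrichment of 13.0, with its summit 2579 bp upstream of the start of SEMA4B-210. Both thus stood before internal starts of the GENCODE record. The RefSeq record of SEMA4B starts at 90184920, so by RefSeq the peak of 122 fragments is the one at the gene start. The peak at the outermost start was low, with 30 fragments (20.2 to 42.8), a fold enrichment of 3.90 and a summit 2515 bp upstream. A pair of peaks of 25 and 41 fragments lay in intron 1 of the canonical transcript, upstream of retained-intron transcripts. The 4 gene body peaks, of 18, 34, 41 and 56 fragments, all lay in introns of longer transcripts before the canonical start. In the flanks, no SEMA4B peak exceeded 83 fragments (66.1 to 103), the height of one 9775 bp upstream of the gene start with a fold enrichment of 12.4. It lay in no start window of a protein-coding gene, and the nearest start of another protein-coding gene was that of IDH2, 48352 bp away.

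SEMA4A, which acts in T-cell priming and in the retina, had 16 peaks in its extended window, most of them in the flanks. Its record (ENSG00000196189) runs from 156147366 to 156177752 on chromosome 1, plus strand, over 30.4 kb. Of these peaks 1 lay at a transcript start, 1 in the gene body and 14 in the flanks. The peak at the gene start, at 156145982 to 156146441, held 56 fragments (42.3 to 72.7) with a summit 1216 bp upstream. The local Input there was 10.0, over a floor of 3.98, and the fold enrichment was 3.83. That 1 peak lay in the start windows of 5 transcripts with nearby starts, 4 of them protein-coding. The canonical start, 6219 bp into the record, had no peak in its window, and the nearest summit was 7435 bp upstream. The gene body peak was far taller, with 141 fragments (119 to 166) and 15.9-fold enrichment at 156167162 to 156167990. It lay in intron 10 of the canonical transcript, 20315 bp from the gene start. It was the only peak in the record, where genes of like length had 2.0 in the median.

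Many flank peaks of SEMA4A lay at other genes, among them the only peak taller than that in the gene body. The tallest, 198 fragments (171 to 228) and a fold enrichment of 13.0, stood 23390 bp upstream, inside the record of LMNA, which encodes the nuclear lamins A and C, 834 bp from an LMNA transcript start. All 8 upstream flank peaks lay inside LMNA. Just downstream of the gene, peaks of 98 (79.6 to 119) and 89 fragments (71.5 to 110) were nearer to SEMA4A than to any other protein-coding gene, with fold enrichments of 9.13 and 12. Farther on, a peak of 134 fragments (112 to 159) had its summit 12 bp from the start of SLC25A44, a mitochondrial carrier gene, and one of 72 fragments lay 284 bp from the start of PMF1, a kinetochore gene. Of the 16 peaks, 12 were nearer to a start of another protein-coding gene than to one of SEMA4A.

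SEMA4F, a neuronal semaphorin, was the member with a peak squarely on its promoter. Its record (ENSG00000135622) runs from 74654228 to 74683853 on chromosome 2, plus strand, over 29.6 kb. The peak at 74654105 to 74654338 was short, 234 bp, and its summit lay 64 bp upstream of the gene start. It held 38 fragments (26.9 to 52.2), below the median of all peaks, with a fold enrichment of 3.62 and a local Input of 7.0. Since 9 of the 10 transcripts start close together, this low peak accounts for 9 of the 29 member transcripts with a peak, 5 of them protein-coding. It was the only peak that overlapped the record, where genes of like length had 1.0 in the median. The other 6 peaks were in the flanks. One of them was the tallest of the whole family, with 199 fragments (172 to 229) and 21.0-fold enrichment at 74632459 to 74633250. It stood 21371 bp upstream, inside M1AP, a gene known from male meiosis, and 7470 bp from the nearest M1AP start. Its height is at the 93.5 percentile of all deposited peaks. A peak of 74 fragments (58.1 to 92.9), 36586 bp downstream of the gene start, lay outside the GENCODE record but inside the longer RefSeq record, which ends at 74709411. A peak of 109 fragments farther downstream, at 74714808 to 74715375, had a local Input of 14, the highest among the 64, and a fold enrichment of 5.41. It is the peak that covers the LOC102724497 window.

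SEMA4C, a ligand of plexin-B2 in the developing cerebellum, had no peak above 60 fragments. Its record (ENSG00000168758), the shortest of the 6 at 11 kb, runs from 96859718 to 96870757 on chromosome 2, minus strand. Its 7 peaks held 24 to 60 fragments, with 2 at transcript starts, 0 in the gene body and 5 in the flanks. Of these, 1 overlapped the record, where genes of like length had 1.0 in the median. The peak 4809 bp upstream of the gene start held 54 fragments (40.6 to 70.5) with a fold enrichment of 8.16. Inside the gene, at 96869019 to 96869295 in intron 1 of the canonical transcript, a peak of 27 fragments (17.8 to 39.3) had a fold enrichment of 2.09 over a local Input of 9.0. Its −log10 q of 1.38 lay just over the cutoff of the peak calling, a q of 0.05, and it was the weakest of the 64 peaks by fold enrichment. This weak peak is the nearest to the canonical start, 962 bp downstream of it, and lay in the start windows of 4 transcripts. In the flanks, the peaks of 60 and 47 fragments lay at the starts of CNNM3, a gene of metal ion transport, and ANKRD39.

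SEMA4D, the ligand of plexin-B1 that collapses growth cones, had few peaks for its length. Its record (ENSG00000187764) spans 137 kb, from 89360787 to 89498130 on chromosome 9, minus strand, with 24 transcripts. Its 9 peaks comprised 1 at a transcript start, 1 in the gene body and 7 in the flanks. The start peak, 57 fragments (43.2 to 73.9) with a fold enrichment of 8.58 at 89390726 to 89391108, lay in intron 9 of the canonical transcript. It was 2219 bp upstream of SEMA4D-216, a retained-intron transcript, and the 2 transcripts whose start windows it lay in are not protein-coding. None of the 13 protein-coding transcripts of SEMA4D had a peak at its start. The gene body peak, in intron 2, held 41 fragments (29.4 to 55.6) with a fold enrichment of 3.89 and a local Input of 7.0. Among 4212 genes from 0.5 to 2 times its length the median was 6.0 peaks overlapping the record, against 2 in SEMA4D, and 12.8% of them had fewer. The tallest peak in its window, 130 fragments (109 to 154) with a fold enrichment of 8.78, lay just beyond the 3′ end of the record, at 89360001 to 89360724. Farther downstream, peaks of 88 and 49 fragments lay at the starts of SECISBP2, a factor of selenoprotein synthesis, and CKS2, a cell cycle kinase subunit.

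SEMA4G, another plexin-B2 ligand of the cerebellum, had no peak at a start and none in its record, which spans 16.4 kb from 100969504 to 100985871 on chromosome 10, plus strand (ENSG00000095539). Among 6578 genes of like length 64.3% had at least 1 peak in the record. All 7 of its peaks were in the flanks. The summit nearest to the gene start lay 6909 bp upstream and held 38 fragments (26.9 to 52.2), with a fold enrichment of 2.63 over a local Input of 10.0. A taller peak of 108 fragments (88.6 to 130) and a fold enrichment of 10.0 stood 7863 bp upstream. Both lay inside SLF2, a gene of DNA repair, and just beyond the 5 kb limit of the start window. Downstream, a peak of 102 fragments lay 1212 bp downstream of the start of LZTS2, which encodes a leucine zipper protein. A peak of 76 fragments had its summit 1623 bp beyond the end of the SEMA4G record. This summit lay 21 bp from the start of MRPL43, a mitochondrial ribosomal protein gene. The start of TWNK, a mitochondrial helicase gene, was 127 bp from the same summit.

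**Figure D2:**
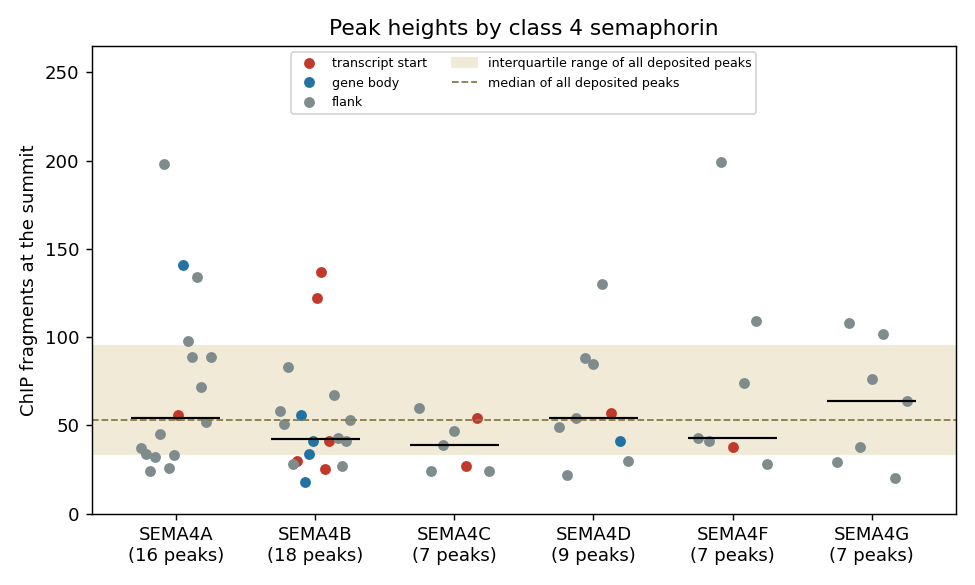
Each point is an OTX2 peak, with its ChIP fragments at the summit on the y axis and the 6 genes on the x axis (red, transcript start; blue, gene body; grey, flank); bars give the median of each gene, and the band and dashed line give the interquartile range (34.0 to 95.0) and median (53.0) of all deposited peaks. The medians of the genes run from 39.0 at SEMA4C to 64.0 at SEMA4G, all within the band, and only SEMA4C has no peak above the band.

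Many peaks in the windows lay near other genes. Of the 64 peaks, 37 were nearer to a transcript start of another protein-coding gene than to one of the member, and 25 flank peaks lay in the start window of another protein-coding gene. A further 29 lay in no start window of a protein-coding gene. These shares were not taken over the extended windows of all protein-coding genes, so they describe where the peaks lay and are not read as particular to the members. The extended windows hold the gene starts of 21 other protein-coding genes, of which 18 (85.7%) had a peak, beside 57.2% of all protein-coding genes. Several of these genes share a peak, as CIB1 and GDPGP1 or MRPL43 and TWNK do, so they are not separate observations. At SEMA4B, the peak of 67 fragments downstream had its summit 330 bp from the start of CIB1, a calcium and integrin binding protein gene, and 91 bp from that of GDPGP1. A lower one of 41 fragments lay 1039 bp from the start of NGRN. The assignment of a flank peak to a semaphorin therefore rests on distance alone.

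Fold enrichment and fragments did not rank the peaks alike, since the fold is the pileup over the local Input, which differed between loci. The local Input ran from the floor of 3.98 to 14 over the 64 peaks, and 16 of them (25%) lay at the floor, as did 26.4% of all peaks. SEMA4B had peaks of low local Input, 3.98 to 6.08, with a median of 4.0, which was also the median at SEMA4D. Those of SEMA4A ran from 4.52 to 10.3 with a median of 5.92, and those of SEMA4F from 3.99 to 14 with a median of 6.0. The medians of SEMA4C and SEMA4G lay between. At comparable heights, the gene start peak of SEMA4A with 56 fragments and that of SEMA4C with 54 had overlapping counting intervals, while their fold enrichments were 3.83 and 8.16 over local Inputs of 10.0 and 3.99.

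**Figure D3:**
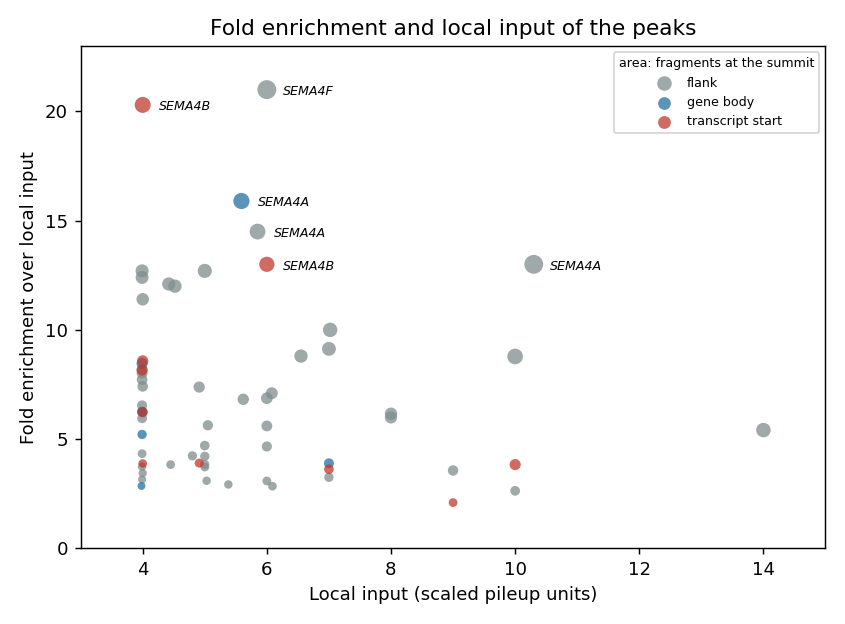
Fold enrichment (y axis) against the local Input in scaled pileup units (x axis) for the 64 peaks, with point area giving the fragments at the summit, colour the peak class and names the 6 highest fold enrichments. The start peak of SEMA4B at 20.3 stands at a local Input of 4.00, near the floor, and the flank peak of SEMA4F at 21.0 stands at 6.0, while the peak with the highest local Input, 14, has a fold enrichment of 5.41.

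Peaks per 10 kb of the extended window ordered the members as SEMA4A (1.23), SEMA4B (1.06), SEMA4C (0.630), SEMA4G (0.602), SEMA4F (0.540) and SEMA4D (0.379). The median over all protein-coding genes was 0.512, with quartiles of 0.273 and 0.789. This order depended on the window and the threshold. With 10 kb on each side SEMA4B (0.146 peaks per kb) and SEMA4C (0.129) exceeded SEMA4A (0.0794), and at 5-fold enrichment or more SEMA4B (0.071) and SEMA4A (0.069) were close. With 50 kb and all peaks, SEMA4A and SEMA4B were above the upper quartile, at the 94.1 and 89.5 percentiles, and the other 4 lay between the quartiles. The counts behind SEMA4C, SEMA4F and SEMA4G were 7 peaks each, so their order has no meaning. By the height of the tallest peak in the window, SEMA4F and SEMA4A were at the 70.9 and 70.6 percentiles of genes and SEMA4C, the lowest, at the 19.5.

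The other semaphorins were set beside class 4. Class 3 genes encode secreted ligands that bind neuropilins with plexin-A receptors, and 5 of 7 had a peak at the gene start. In classes 5 to 7, which are membrane-bound, 6 of 7 had one. Beside these stand 4 of 6 in class 4 and 57.2% of all protein-coding genes, and with so few genes the counts are not read as a difference between classes. The tallest gene start peak of those genes that had one was 46.0 fragments in the median for class 4, ranging from 30 to 56, against 28.0 (24 to 51) in class 3 and 96.5 (33 to 211) in classes 5 to 7. Over all protein-coding genes with a gene start peak the median was 54.0. The highest values outside class 4 were 211 fragments (183 to 241) with a fold enrichment of 26.6 at SEMA6C and 199 fragments (172 to 229) with 18.9 at SEMA6D. The highest in class 4 was 56 fragments at SEMA4A by the outermost GENCODE start. At internal GENCODE starts of SEMA4B, which include its RefSeq start, the peaks held 122 and 137 fragments. The maximum of the class thus depends on which start is taken. Peak density did not separate the classes, with medians of 0.616 per 10 kb in class 4, 0.581 in class 3 and 0.642 in classes 5 to 7 and overlapping ranges. With 6 or 7 genes a class and genes not being replicates, no test was made of these differences.

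**Figure D4:**
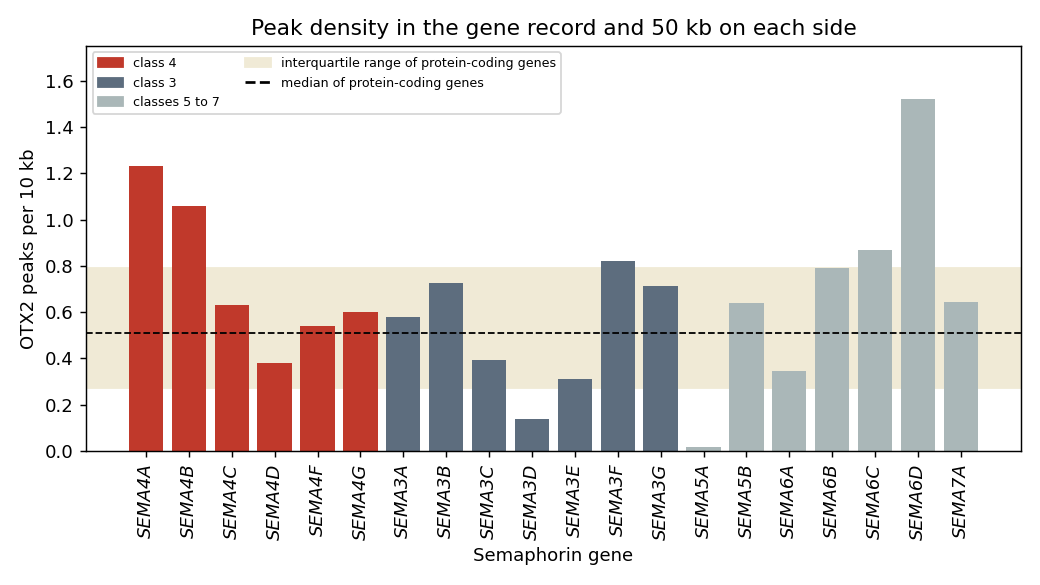
Bars give OTX2 peaks per 10 kb (y axis) in the extended window of each semaphorin gene (x axis), with class 4 in red, class 3 in dark grey and classes 5 to 7 in light grey, and the dashed line and band give the median (0.512) and interquartile range (0.273 to 0.789) of all protein-coding genes. SEMA4A at 1.23 and SEMA4B at 1.06 stand above the band, and the other 4 class 4 genes lie inside it.

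Receptors of class 4 semaphorins differed in binding at their starts. Of the 4 plexins PLXNB1, PLXNB2, PLXNB3 and PLXND1, PLXNB2 alone had a gene start peak, with 39 fragments (27.7 to 53.3), a fold enrichment of 5.94 and a summit 1529 bp downstream. PLXNB1, the SEMA4D receptor, had 6 peaks in its extended window, the tallest of 217 fragments, and none in its record. PLXNB3 had 0 peaks in the whole extended window. PLXND1 had 9, with 1 in the record and a peak at another of its transcript starts. Over a list of 19 receptors, coreceptors, cytoplasmic partners and downstream signaling genes, 13 had a gene start peak and 15 a peak at any start, beside the 57.2% and 66.6% of all genes. Within it 2 of 3 other receptors or coreceptors and both cytoplasmic partners had a gene start peak. The tallest stood at ARHGEF12, with 264 fragments (233 to 298), a fold enrichment of 26.7 and a summit 4625 bp upstream. ERBB2, a receptor tyrosine kinase that couples with plexin-B1, followed with 144 fragments (121 to 170) and 11.9-fold enrichment, and ARHGEF11 with 112 (92.2 to 135) and 7.58. These 3 genes were named for their tall peaks, and their heights are a description.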

How the data were processed

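OTX2 ChIP and Input libraries of D283 tumorspheres were analysed, 1 each. Reads had been aligned to GRCh38 (Bowtie2 2.2.4) and peaks called (MACS2 2.1.0.20140616) by the authors, who state that blacklisted regions were masked. The deposited pileup is a signal, namely the scaled coverage of the summit by fragments. The fold enrichment, as deposited, is the ratio of pileup plus 1 to local Input plus 1. The −log10 q was used as deposited. All 137412 pileups were whole multiples of 0.735, within 0.01 of a multiple, and this step was taken as 1 ChIP fragment. It is 2 times the Input to ChIP ratio of 0.368, a factor for which the sources used here give no reason. The local Input was read back from pileup and fold. Since the Input was shallower than the ChIP library, it limits the precision of fold values, and a site at the Input floor has a fold set by that floor.

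Gene and transcript positions were the original GRCh38 positions recorded in GENCODE release 44, and no coordinate was converted. An overlap of at least 1 bp counted. Tables were handled with pandas 2.3.3 and numpy 2.4.6 under Python 3.11.15, intervals came from scipy 1.17.1 and plots from matplotlib 3.10.9. The counting was checked on simulated peaks. With 1 library per condition no test across samples was possible, and counts are given beside the share of all protein-coding genes. The members and lists were chosen with earlier results of these data known. Named genes were the 6 members, the 4 plexins, the 3 other listed genes with the tallest gene start peak, up to 2 neighbours per member by the tallest peak at their start, and the other semaphorins with the tallest gene start peak. LMNA, M1AP, SLF2, IDH2, TWNK, GDPGP1 and LOC102724497 were named after their values were seen, as were SEMA4B-210, SEMA4B-202 and SEMA4D-216. Peak sequences away from RefSeq windows were not analysed here, as the genome at hand was GRCh37. The count for a further group of the list is not reported here.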

Additional observations from a re-analysis of the deposited data

How the results depend on the processing

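The peak threshold, the start window, the summit rule, the transcripts used, the extension and the gene record were varied, which gave 100 values over 22 results and 9 alternatives, and 76 of them stayed within 1.5 times the value reported. Some of the 76 could hardly move. The tallest peak of each member was varied only by the peak threshold, and the counts at transcript starts and in gene bodies do not depend on the extension. With 10 kb on each side the tallest peaks of SEMA4F, 21371 bp upstream, and SEMA4A, 23390 bp upstream, would fall outside the window. The RefSeq record was chosen after seeing the data. With a fold enrichment of at least 5, a peak was left at the gene start of 1 member and 6 other semaphorins, at any start of 3 members and at 11 member transcripts. The peaks then numbered 39 in all, 5 at transcript starts and 30 in flanks, and peaks per kb fell to 0.069 at SEMA4A, below the 0.071 at SEMA4B, 0.027 at SEMA4C and 0.0344 at SEMA4G. With a −log10 q of at least 5, SEMA4C had 0.036 per kb. Within 1 kb of the start, 2 members, 7 other semaphorins and 16 member transcripts had a peak, with 4 peaks at transcript starts and 10 in gene bodies. Protein-coding transcripts alone also gave 16. With an extension of 10 kb there were 29 peaks, 13 of them in flanks, and peaks per kb were 0.0794 at SEMA4A, 0.146 at SEMA4B, 0.129 at SEMA4C and 0.0191 at SEMA4D, whereas 100 kb gave 112 peaks and 96 in flanks. With RefSeq records, in which SEMA4F reaches 74709411, it had 12 peaks in the extended window and 2 in the record, and 4 of 6 members still had a peak at the start. For SEMA4B, whose RefSeq record starts at 90184920, that peak was the one of 122 fragments. By the canonical transcript the members with a peak were SEMA4B, SEMA4C and SEMA4F. SEMA4C then kept only its weak peak of 27 fragments, with a fold enrichment of 2.09, and not that of 54 fragments. No paired analysis was possible because each condition has 1 library. The depth of the Input limits the fold enrichment of low peaks, such as that in intron 1 of SEMA4C.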
